A study of Mus musculus with 9 samples.

Results

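The Foxp family of forkhead transcription factors was followed in the cerebral cortex of newborn mice that had or lacked Fezf2. Its 3 neural members, Foxp1, Foxp2 and Foxp4, were taken by gene symbol from the 24624 genes of the deposited expression table. The table came from bulk RNA-seq of 9 libraries, each made from the cortex of 1 mouse at postnatal day 0. Of these, 3 mice were Fezf2+/+, 4 were Fezf2-/-, and 2 were Fezf2-/-; Fezf2-EnR. The null allele carries a human placental alkaline phosphatase (PLAP) reporter in the Fezf2 locus, and both mutant groups are homozygous for it. Fezf2-EnR is a bacterial artificial chromosome transgene from a single mouse line, in which the FEZF2 DNA-binding domain is joined to the engrailed repressor domain and expressed under Fezf2 regulatory sequence. The pups came from crosses of Fezf2+/- with Fezf2+/-; Fezf2-EnR mice and belonged to 3 litters labelled m1, m2 and m3. The libraries are named bc201 to bc209, as in their labels.

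FOXP proteins are transcription factors, best known as repressors, that bind DNA through a forkhead domain and pair with themselves or with one another through a leucine zipper. In the neocortex Foxp2 is a marker of deep-layer neurons and above all of layer 6 corticothalamic neurons, which send their axons to the thalamus. Foxp1 is expressed more broadly in cortical projection neurons, and Foxp4 is also present in progenitors and in many neurons. Outside the cortex, the striatum is a major site of Foxp1 and Foxp2 expression. The remaining family member, Foxp3, is the master regulator of regulatory T cells and is not a neural gene. FEZF2 is a zinc-finger transcription factor of deep-layer neurons, and the study asked how it sets the identity of corticothalamic and subcerebral neurons and whether a repressor form of it can stand in for the protein.

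The members are separate genes with related coding sequence. In the mm10 build (GRCm38, GENCODE M21 annotation) Foxp2 (ENSMUSG00000029563.16) lies on the plus strand at chr6:14901349-15441977. Foxp1 (ENSMUSG00000030067.17) lies on the minus strand of the same chromosome at chr6:98925338-99522721, and Foxp4 (ENSMUSG00000023991.16) on the minus strand at chr17:47867133-47924645. Over all annotated transcripts the longest run of identical bases shared by any pair of members is 35 bases, between Foxp1 and Foxp2. The reads were 50 bases long, and 0 of the 50-base stretches of any member occurred in another member. Foxp1 shared 342 of its 14132 stretches (2.42%) with other genes, Foxp2 54 of 16641 (0.32%) and Foxp4 0 of 5019. Most of those of Foxp1 belonged to 2 annotated genes that overlap its exons on the same strand, RP23-133N21.3 (Gm20696 in the annotation), at 76.1 to 104 normalized counts in every library, and the microRNA gene Gm49348, at 2.09 to 6.76.

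Values are read counts divided by a size factor for each library, so that libraries can be compared (normalized counts). They summed to between 20097781 and 21058156 per library and rested on 18716575 to 25127623 reads. The targeted gene followed the labels: Fezf2 stood at 1232, 1010 and 979 in Fezf2+/+, at 223, 193, 242 and 209 in Fezf2-/-, and at 907 and 1001 in Fezf2-/-; Fezf2-EnR, where transcripts of the transgene and of the locus are not separated. Fezf2 fell in Fezf2-/- (log2 fold change -2.30, SE 0.10, limma adjusted p = 1.38e-06).

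All 3 neural members were expressed in every library, and Foxp3 was close to absent. Foxp3 had 1 to 5 reads per library, and lay below the mean of 10 that a gene needed to be tested. To set the members side by side, each value was divided by the gene's length in kilobases. Per kilobase of merged exons, Foxp1 averaged 412 in Fezf2+/+ (lowest 379, highest 452), Foxp4 averaged 365 (340 to 382) and Foxp2 averaged 47.0 (45.4 to 50.2). Foxp2 was the lowest of the 3 in every library, while Foxp1 and Foxp4 overlapped between the libraries of Fezf2+/+. Per kilobase of the longest coding transcript they did not overlap: Foxp1 averaged 789 (725 to 866) and Foxp4 averaged 450 (419 to 470), beside 114 for Foxp2 (110 to 121). The order of Foxp1 and Foxp4 therefore depended on the length used, and the place of Foxp2 did not.

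**Figure D1:**
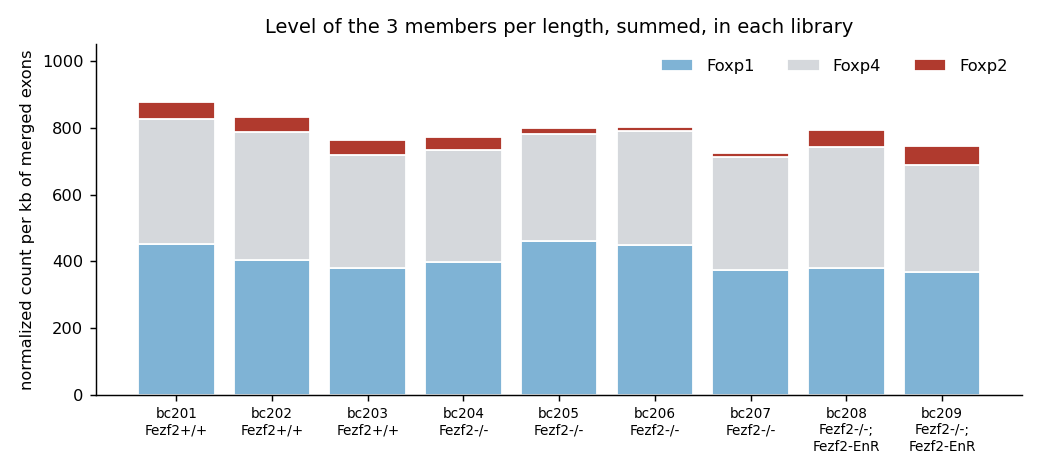
Stacked bars give the normalized count per kilobase of merged exons of Foxp1, Foxp4 and Foxp2 in each of the 9 libraries. Foxp2 is the thin top segment, at 45.4 to 50.2 in Fezf2+/+, 9.86 to 38.9 in Fezf2-/- and 50.6 to 55.7 in Fezf2-/-; Fezf2-EnR.

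Of the 3 members, Foxp2 had the largest log2 difference between group means in each comparison. Its normalized counts were 820, 742 and 742 in Fezf2+/+, with a mean of 768 ± 45.3 (SD, n = 3). In Fezf2-/- they were 636 in bc204, 276 in bc205, 224 in bc206 and 161 in bc207, with a mean of 324 ± 213 (SD, n = 4). In Fezf2-/-; Fezf2-EnR they were 826 and 911, with a mean of 869 ± 60.0 (SD, n = 2). Every Fezf2-/- library lay below every library of the other groups, and both Fezf2-/-; Fezf2-EnR libraries lay above every Fezf2+/+ library. The Fezf2-/- libraries were far more spread than the rest: their coefficient of variation was 65.7%, against 5.90% in Fezf2+/+ and 6.91% in Fezf2-/-; Fezf2-EnR.

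Most of the spread within Fezf2-/- lay in 1 library, bc204. As a percentage of the Fezf2+/+ mean, Foxp2 stood at 82.8% in bc204 and at 35.9%, 29.2% and 21.0% in the other 3. Counting error was small beside that gap: the 633 Foxp2 reads of bc204 have an exact 95% Poisson interval of 585 to 684, and the 194 reads of bc207 one of 168 to 223. Such intervals cover counting error only. The libraries bc204 and bc207 carry the same genotype and litter labels.

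**Figure D2:**
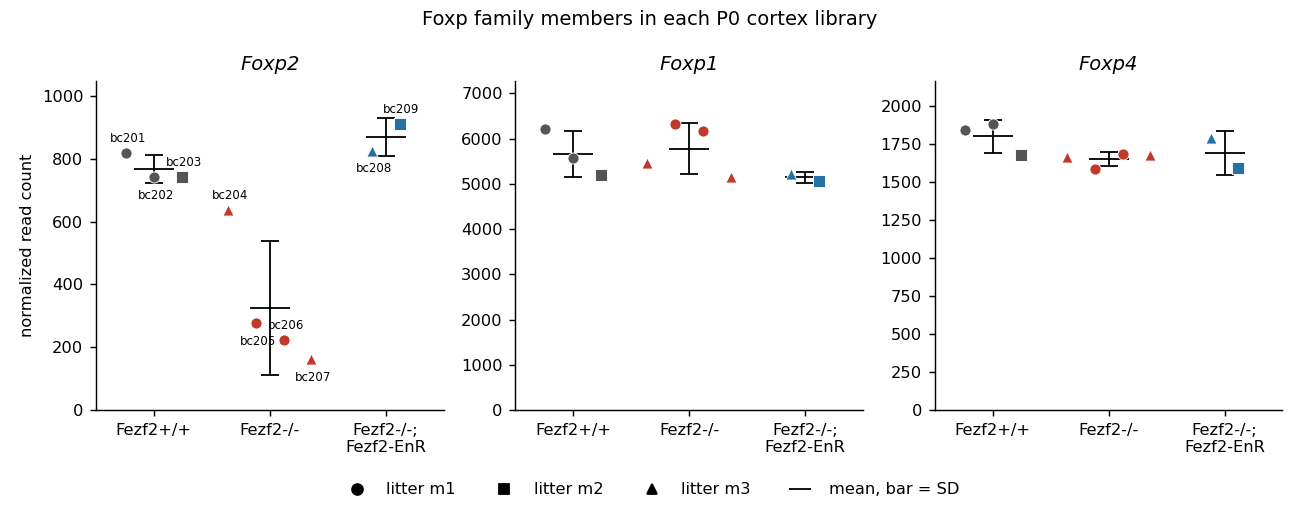
Each panel plots the normalized read count of 1 member (y axis from 0) in the 9 libraries by genotype, with marker shape for the litter and a black line and bar for the group mean and SD. In the Foxp2 panel 3 Fezf2-/- libraries lie between 161 and 276 and bc204 lies at 636, while Foxp1 and Foxp4 overlap between Fezf2-/- and each of the other genotypes.

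Foxp2 was lower in Fezf2-/- than in Fezf2+/+ by 1.44 on the log2 scale of normalized count + 1, but the difference did not pass the test over all genes. The fit gave a log2 fold change of -1.44 (SE 0.35, 95% interval -2.21 to -0.67), an unadjusted p of 0.00181 and an adjusted p of 0.123 (limma, Benjamini-Hochberg over 16197 genes). With all libraries, 0 of the 3 members passed an adjusted p of 0.05 in limma, where 0.858% of all genes tested did (139 genes). Only Foxp2 had an unadjusted limma p under 0.05 in this comparison, and edgeR and DESeq2, run on the reads recovered from the table, also called 0 members. The exact permutation test over the 7 libraries gave a two-sided p of 0.057, where the smallest p that 35 arrangements allow is 0.029. Foxp2 was the only member whose libraries did not overlap between these genotypes, which was so for 13.0% of all genes tested.

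Library bc204 decided the call. Without it, Foxp2 fell by 1.83 on the log2 scale (SE 0.17, 95% interval -2.20 to -1.46, limma adjusted p = 0.000758), to 0.281 of its Fezf2+/+ level, in a fit that called 0.618% of all genes. Since bc204 had the highest Foxp2 of the Fezf2-/- libraries, leaving it out had to enlarge the difference and narrow the spread. That fit, and each later comparison with Fezf2-/- without bc204, is therefore no separate test of Foxp2. Within litter m1, the only litter with both genotypes, the Fezf2+/+ libraries had 820 and 742 and the Fezf2-/- libraries 276 and 224. That difference was -1.65 (SE 0.11, limma adjusted p = 0.000142), in a fit that called 1.47% of all genes. This fit lacks bc204 too, and it rests on 2 libraries of each genotype. With each of the other 8 libraries left out in turn the difference stayed negative, between -1.17 and -1.46, and was not called. With 3 libraries a side, the exact test without bc204 gave p = 0.10, which is the smallest it can give.

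In Fezf2-/-; Fezf2-EnR, Foxp2 lay above its level in Fezf2-/-. The 826 and 911 counts of the transgenic libraries compare with 161 to 636 in Fezf2-/-. The log2 fold change was 1.62 (SE 0.40, 95% interval 0.74 to 2.49), a 3.07-fold higher level, with an unadjusted p of 0.00193 and an adjusted p of 0.106 in limma. Again 0 of the 3 members were called in limma, edgeR or DESeq2, where limma called 0.766% of all genes, and Foxp2 alone had an unadjusted p under 0.05 in each tool. Without bc204 Foxp2 rose by 2.01 (SE 0.19, 95% interval 1.59 to 2.42, limma adjusted p = 0.00142), or 4.02-fold, in a fit that called 0.445% of all genes. The exact test with all 6 libraries gave p = 0.13, with a smallest possible p of 0.067. Libraries did not overlap for Foxp2 alone of the 3 members, and for 24.6% of all genes tested. This comparison and the previous one share the 4 Fezf2-/- libraries, bc204 among them, so their values are not independent.

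Litter and genotype were partly mixed in this comparison. In litter m3, the only litter with both mutant genotypes, Foxp2 was at 826 in the transgenic library bc208, at 636 in bc204 and at 161 in bc207. On the log2 scale bc208 was higher than bc204 by 0.38 and higher than bc207 by 2.35, so the litter did not give 1 value for the contrast. With litter as a term in the fit, the difference between Fezf2-/-; Fezf2-EnR and Fezf2-/- was 1.56 (SE 0.47, limma adjusted p = 0.216), and that between Fezf2-/- and Fezf2+/+ was -1.52 (SE 0.41, adjusted p = 0.186).

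Foxp2 in Fezf2-/-; Fezf2-EnR was not distinguished from its level in Fezf2+/+. The mean of 869 ± 60.0 (SD, n = 2) stood beside 768 ± 45.3 (SD, n = 3), which differ by 0.18 on the log2 scale (SE 0.42, limma adjusted p = 0.846). The 95% interval ran from -0.74 to 1.10, so that levels from 0.599 to 2.14 times that of Fezf2+/+ remain possible. That fit shares its spread with the Fezf2-/- libraries, and the interval narrowed to -0.24 to 0.59 (SE 0.19) without bc204 and to -0.05 to 0.41 (SE 0.099) with only the libraries of these 2 groups in the fit, with adjusted p = 0.631 and 0.401 in limma. The libraries of these groups did not overlap for Foxp2, as for 34.6% of all genes tested, and the exact test gave p = 0.20 where 0.10 is the smallest it can reach. Of the 3 members, 0 were called in limma, edgeR or DESeq2, with 0 at an unadjusted p under 0.05 and 0.117% of all genes called in limma. In litter m2, the transgenic library bc209 had 911 and the Fezf2+/+ library bc203 had 742.

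**Figure D3:**
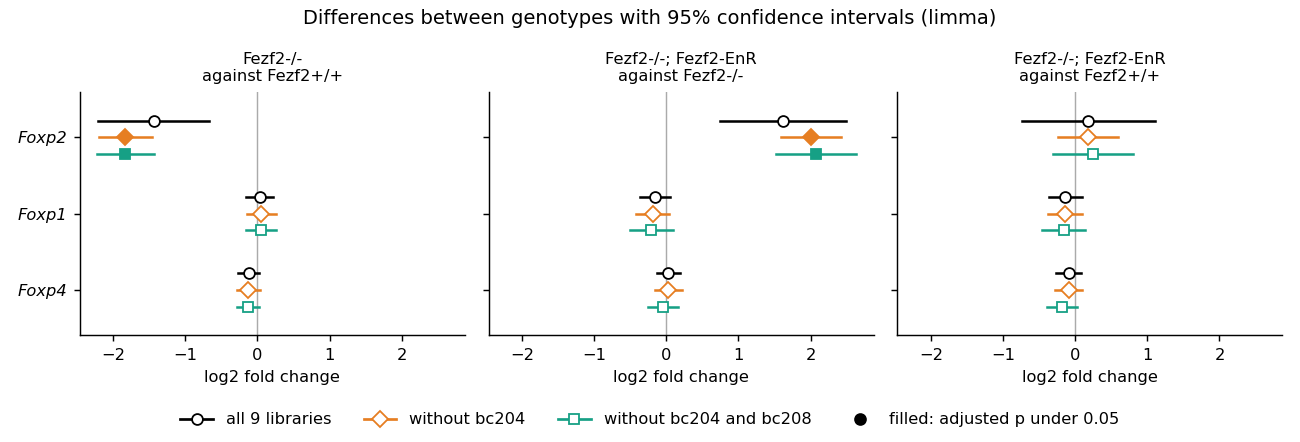
Points give the log2 fold change (x axis) and lines its 95% confidence interval from limma, for each member in the 3 comparisons, with all 9 libraries, without bc204, and without bc204 and bc208. With bc204 and bc208 left out, bc209 is the only transgenic library. For Foxp2 the interval narrows from -2.21 to -0.67 with all libraries to -2.20 to -1.46 without bc204, and only the filled points have an adjusted p under 0.05.

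Foxp1 showed no difference between genotypes that passed the test. It stood at 6218, 5570 and 5206 in Fezf2+/+, at 5455, 6324, 6166 and 5142 in Fezf2-/-, and at 5226 and 5059 in Fezf2-/-; Fezf2-EnR. The groups overlapped in every comparison. Fezf2-/- differed from Fezf2+/+ by 0.03 on the log2 scale (SE 0.08, 95% interval -0.16 to 0.21, limma adjusted p = 0.939), an interval that spans 0.895 to 1.16 times the Fezf2+/+ level, and the sign turned without bc203, bc205 or bc206. Against Fezf2-/-, the transgenic libraries differed by -0.16 (SE 0.10, adjusted p = 0.409), and against Fezf2+/+ by -0.14 (SE 0.10, adjusted p = 0.487), which became 0.01 with litter in the fit.

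Foxp1 values also split by litter. The litter m1 libraries, of both genotypes, held the 4 highest values, from 5570 to 6324, and the m2 and m3 libraries lay between 5059 and 5455. Within Fezf2-/-, the m3 libraries were 0.24 lower than the m1 libraries on the log2 scale. This split was noticed in the values and was not tested. In bc204 Foxp1 was at 5455, between the other Fezf2-/- libraries.

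Foxp4 was the steadiest member in Fezf2-/-. It stood at 1842, 1881 and 1677 in Fezf2+/+, at 1665, 1584, 1683 and 1674 in Fezf2-/-, and at 1791 and 1588 in Fezf2-/-; Fezf2-EnR. In Fezf2-/- only bc206 reached above the lowest Fezf2+/+ library, so the groups overlapped narrowly. The log2 fold change was -0.12 (SE 0.07, 95% interval -0.27 to 0.02, limma adjusted p = 0.552), and the exact permutation test gave p = 0.057. Within litter m1 the difference was -0.19. The transgenic libraries differed from Fezf2-/- by 0.03 (SE 0.07, adjusted p = 0.866) and from Fezf2+/+ by -0.09 (SE 0.08, adjusted p = 0.547), and the first of these changed sign without bc208. The 95% intervals of these last differences were -0.13 to 0.19 and -0.26 to 0.08.

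The balance of Foxp2 against the other members within a library shifted with its level. Per kilobase of merged exons, Foxp1 was 8.34 to 9.01 times Foxp2 in Fezf2+/+, 10.2 times in bc204, 27.3 to 37.9 times in the other Fezf2-/- libraries, and 6.60 to 7.52 times in Fezf2-/-; Fezf2-EnR. Foxp4 was 7.45 to 8.42 times Foxp2 in Fezf2+/+, 8.69 times in bc204, 19.1 to 34.5 times in the other Fezf2-/- libraries and 5.78 to 7.19 times in Fezf2-/-; Fezf2-EnR. The log2 ratio of Foxp2 to Foxp1 was lower by 1.47 in Fezf2-/- than in Fezf2+/+, by an exact permutation test with two-sided p = 0.057, or 0.18 after adjustment over the 9 ratio tests made. That of Foxp2 to Foxp4 was lower by 1.32 (exact p = 0.057, adjusted 0.18). The Foxp4 to Foxp1 ratio differed by -0.15 (exact p = 0.26, adjusted 0.29). With these group sizes the smallest adjusted p that the 9 ratio tests could give is 0.086, so an adjusted p of 0.05 was out of reach whatever the values.

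Foxp2 was set beside 9 markers of layer 6 corticothalamic neurons, to see whether it followed them library by library. The summed level of these 9 genes was 23690 to 24469 in Fezf2+/+, 16846 to 19482 in Fezf2-/- and 24597 to 29090 in Fezf2-/-; Fezf2-EnR. In Fezf2-/- against Fezf2+/+ 4 of the 9 were called by limma, all lower, beside 0.858% of all genes tested in either direction. Tle4, which encodes a Groucho-family co-repressor, fell by 1.55 on the log2 scale in Fezf2-/- (SE 0.10, limma adjusted p = 1.27e-05). Zfpm2, a zinc-finger co-factor of GATA proteins, fell by 1.61 (SE 0.14, adjusted p = 0.000276). Hs3st4, a heparan sulfate sulfotransferase, fell by 1.98 (SE 0.07, adjusted p = 3.52e-07), and Syt6, a synaptotagmin, fell by 1.60 (SE 0.22, adjusted p = 0.00593). All 4 were also called higher in Fezf2-/-; Fezf2-EnR than in Fezf2-/-, as was Grik3, a kainate receptor subunit, beside 0.766% of all genes tested. In bulk tissue, fewer cells of a type and less RNA per cell cannot be told apart.

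In library bc204 Foxp2 was out of step with 3 of the 4 called markers. Tle4 stood at 35.5% of its Fezf2+/+ mean in bc204 and at 29.8% to 36.0% in the other Fezf2-/- libraries. Zfpm2 stood at 27.3% in bc204 against 33.4% to 34.3%, and Hs3st4 at 25.3% against 24.7% to 26.6%. Syt6, like Foxp2, was highest in bc204, at 50.4% against 21.5% to 32.9%. Foxp2 was at 82.8% in that library against 21.0% to 35.9%. The 5 markers that were not called in Fezf2-/- against Fezf2+/+ stood in bc204 at 90.2% for Tbr1, 85.5% for Ntsr1, 80.2% for Grik3, 78.6% for Sox5 and 67.4% for Lhx5, each the lowest of the 4 Fezf2-/- libraries.

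Markers of striatal projection neurons, the neurons of the nucleus under the cortex, stood apart in the same library. The summed level of 9 such markers was 6890 in bc204 and 5673 in bc208, both of litter m3, and 3871 to 4925 in the other 7 libraries. The remaining m3 library, bc207, was among these 7, at 4323. By genotype the sums ran from 3871 to 4773 in Fezf2+/+, 3920 to 6890 in Fezf2-/- and 4925 to 5673 in Fezf2-/-; Fezf2-EnR. In bc204, 8 of the 9 markers lay above all 7 of those libraries, and in bc208 6 of 9 did, with 0 markers at zero counts in any library. Drd2, the dopamine receptor of indirect-pathway neurons, had 174 normalized counts in bc204, 102 in bc208 and 15.3 to 41.4 elsewhere. Adora2a, the adenosine receptor of the same neurons, had 368, 189 and 48.1 to 111, and Isl1, a transcription factor of direct-pathway neurons, had 139, 38.8 and 2.19 to 20.7. Drd1, the dopamine receptor of direct-pathway neurons, had 432 in bc204, 503 in bc208 and 277 to 477 elsewhere. The part of striatal RNA in the Foxp2 value of bc204 or bc208 was not tested. In bc209 the summed level was 4925, the highest of the other 7 libraries. Its Drd2 (15.3), Adora2a (48.1) and Isl1 (2.19) were the lowest of the 9 libraries, and its Sp9 (318) and Pde10a (3633) the highest of those 7. Foxp2 in bc209 was at 911, the highest of the 9. Leaving out both bc204 and bc208 leaves bc209 as the only transgenic library. In that fit Foxp2 fell by 1.83 on the log2 scale in Fezf2-/- against Fezf2+/+. It was 2.08 higher in Fezf2-/-; Fezf2-EnR than in Fezf2-/-, a difference that rests on bc209 alone on the transgenic side. The summed level of 6 markers of GABAergic interneurons was 5582 to 5925 in Fezf2+/+, 7014 to 7808 in Fezf2-/- and 5910 to 6514 in Fezf2-/-; Fezf2-EnR, and its part in the Foxp2 values was not tested either. The summed level of 6 markers of cortical progenitors was 4332 to 5451 in Fezf2+/+, 4933 to 5852 in Fezf2-/- and 6134 to 7208 in Fezf2-/-; Fezf2-EnR, where Foxp2 was also highest. Among them Eomes, a transcription factor of intermediate progenitors, was 3.69-fold higher in Fezf2-/-; Fezf2-EnR than in Fezf2-/- (limma adjusted p = 0.0426). It was the only progenitor marker with an adjusted p under 0.05 there, beside 0.766% of all genes tested. On the log2 scale Pax6 (0.39), Vim (0.3), Nes (0.26) and Sox2 (0.19) were higher without a call, and Hes5 was lower (-0.04). The part of progenitor cells in the Foxp2 values was not tested.

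**Figure D4:**
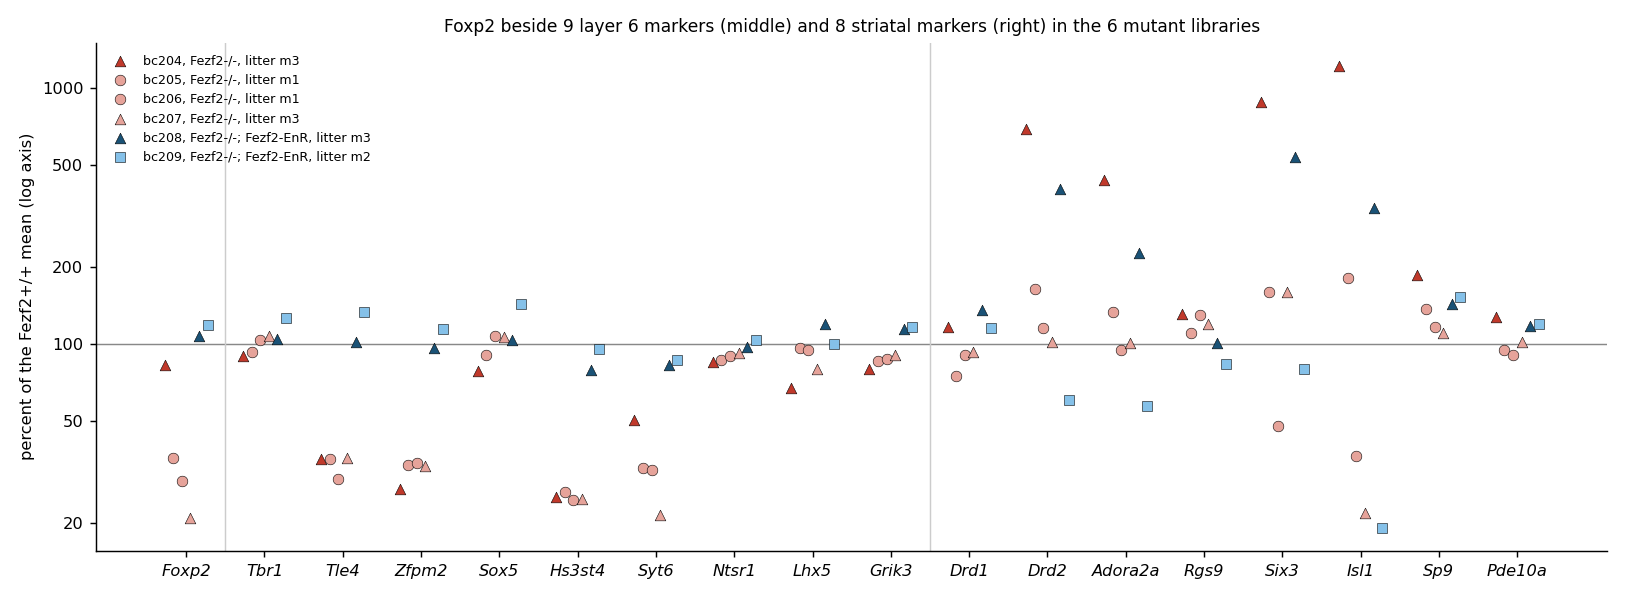
For Foxp2, 9 layer 6 markers and 8 of the 9 striatal markers, points give the percent of the Fezf2+/+ mean (log axis) in each of the 6 mutant libraries, with colour for the library and shape for the litter. In bc204 Foxp2 is at 82.8% while Tle4, Zfpm2 and Hs3st4 are at 25.3% to 35.5% and Syt6 is at 50.4%. In the same library Drd2, Adora2a, Six3 and Isl1 are at 439% to 1220%, and Drd1, Pde10a, Rgs9 and Sp9 at 117% to 187%. Six3 and Isl1 rest on Fezf2+/+ means of only 10.9 and 11.4 normalized counts.

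Proteins that work with FOXP factors were looked up as a list of 18 genes, which includes the CtBP and NuRD co-repressors and cortical transcription factors that bind FOXP proteins. All 18 were tested, and 0 were called in any of the 3 comparisons by limma, beside 0.858%, 0.766% and 0.117% of all genes. At an unadjusted p under 0.05 there were 2, 3 and 3 of them, beside 10.8%, 16.9% and 19.3% of all genes, edgeR called 0, and DESeq2 called Ctbp2 in Fezf2-/-; Fezf2-EnR against Fezf2-/- (log2 fold change 0.48, adjusted p = 0.00822) and Zmym2 in Fezf2-/-; Fezf2-EnR against Fezf2+/+ (0.30, adjusted p = 0.0497). Between Fezf2-/- and Fezf2+/+ their median difference was -0.01 on the log2 scale, beside 0.00 over all genes. The farthest from 0 was Nfatc2, a calcium-responsive transcription factor, at 35.3 ± 3.88 (SD, n = 4) against 22.2 ± 7.54 (SD, n = 3) normalized counts, or 0.69 higher on the log2 scale (adjusted p = 0.297, limma). Ctbp2, a co-repressor that binds FOXP proteins, had -0.25 (adjusted p = 0.381), and Nr2f2, a nuclear receptor of caudal cortex and interneurons, 0.20 (adjusted p = 0.637).

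Known targets of FOXP2 or FOXP1 were looked up as a list of 8 genes. Srpx2 and Plaur, a ligand and its receptor known as FOXP2 targets, were below the expression filter, and 6 were tested. Of these, 0 were called in any of the 3 comparisons by limma, edgeR or DESeq2, beside 0.858%, 0.766% and 0.117% of all genes called by limma. At an unadjusted limma p under 0.05 there were 3, 3 and 2, beside 10.8%, 16.9% and 19.3% of all genes. Between Fezf2-/- and Fezf2+/+ their median difference was -0.02 on the log2 scale, with 3 of the 6 positive, beside 0.00 over all genes. Disc1, a scaffold protein of developing neurons, differed by 0.48 on the log2 scale (adjusted p = 0.434, limma). Cntnap2, a neurexin-family adhesion protein and a classic target that FOXP2 represses, averaged 1526 ± 286 (SD, n = 4) where Fezf2 was lost and 1165 ± 114 (SD, n = 3) in Fezf2+/+, which differ by 0.37 on the log2 scale (adjusted p = 0.340). Dab1, the adaptor of reelin signalling, had -0.25 (adjusted p = 0.371).

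The genes whose levels followed each member most closely were taken from 12962 others, by Pearson's correlation of log2 values over the 9 libraries, which share genotype, litter and depth differences with the member. For Foxp2 they were Hsd17b10 (r = 0.973), Syt6 (0.954), RP23-7F9.1 (0.946), Shb (0.938) and Lage3 (0.937). In all 5, bc204 was the highest of the Fezf2-/- libraries, as it was for Foxp2, which their choice by correlation with Foxp2 favours. Syt6 and Shb, a signalling adaptor that fell by 0.69 (limma adjusted p = 0.0434), were called lower in Fezf2-/- than in Fezf2+/+. The others were closer between genotypes: Hsd17b10, a mitochondrial dehydrogenase, averaged 521 in Fezf2-/- and 575 in Fezf2+/+. For Foxp1 they were Dhx35 (r = 0.967), Fuk (0.953), Tinf2 (0.946), RP24-324L19.3 (0.945) and Triqk (0.927), and for Foxp4 they included Chmp4b (0.925), Cabp1 (0.890), Pald1 (0.882) and Tsta3 (0.880). None of these 9 genes was called by limma in any of the 3 comparisons. With 9 libraries and so many genes compared, these values are a description and carry no test.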

How the data were processed

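Cortex was dissected from 9 P0 mice, poly(A) libraries were made per mouse, and paired-end reads of 50 bases were sequenced (labels name a NovaSeq, the methods a HiSeq). The methods list 1 Fezf2+/+ mouse more than the labels, which give 3. The authors' processing notes name STAR, Bowtie, DESeq and mm10. The deposited values are gene-level signal, that is read counts divided by the authors' DESeq size factor. In each of the 9 libraries 100.0% of the values came back to whole reads, with a tolerance of 0.006 normalized counts. The main test was limma 3.58.1 (trend) on log2(value + 1), pseudocount 1, for 16197 genes whose mean over libraries reached 10, in 1 fit of all 9 libraries with 1 coefficient per genotype; p-values were adjusted by Benjamini-Hochberg, and adjusted p under 0.05 is a call. edgeR 4.0.16 and DESeq2 1.42.0 were run on the recovered reads as alternatives, beside other pseudocounts, filters, TMM scaling, litter terms and leaving out each library. The fit was tested on simulated data, drawn with the same dispersion for every gene and group and with no divergent library. That test therefore does not cover a gene with unequal spread between groups, such as Foxp2. Single values also had exact two-sided permutation tests over libraries. Foxp1, Foxp2, Foxp4, Foxp3 and Fezf2 were named, with the 5 genes most correlated with each neural member (mean of at least 50), genes overlapping a member, and called genes of the partner and target lists or otherwise the 3 with the largest change. The members and the lists were chosen with earlier results of these data known. Leaving out bc204 and bc208 together, the ratio tests and the litter split of Foxp1 were added after the values were seen. Drd1 was matched by gene identifier, since the table gives it another symbol. Some items are not reported here. Shared stretches of sequence came from the mm10 reference with GENCODE M21, to which 24595 of 24624 identifiers matched.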

Additional observations from a re-analysis of the deposited data

Results flagged for a closer look

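The summed level of the 9 striatal projection neuron markers was 6890 in the Fezf2-/- library bc204 and 3920 to 4338 in the other 3 Fezf2-/- libraries. The gap to its nearest neighbour was 0.859 of the whole range of the group, above the 95% critical value of Dixon's test for 4 samples. Of 51 levels examined in this way in the Fezf2-/- group (the members, Fezf2, the named and listed genes and 8 marker sums) it was the only 1 past that value, where chance alone flags about 1 group in 20. At that rate, 1 flag among 51 levels is no more than chance gives. The 9 striatal markers were not examined singly in this way, so the count does not bear on them. In bc204, 8 of the 9 lay above all 7 libraries other than bc204 and bc208. For Foxp2 in the same library the gap was 0.759 of the range, and for Foxp4, with bc205 as the low library, it was 0.822.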

How the results depend on the processing

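Foxp2 kept its direction in all alternatives run in the 3 comparisons. In Fezf2-/- against Fezf2+/+ its log2 fold change ran from -1.83 to -1.17 with 1 library left out, and it was called without bc204, in litter m1 alone (-1.65) and without bc204 and bc208 (-1.83, adjusted p = 0.0017), and in none of the other 17. In Fezf2-/-; Fezf2-EnR against Fezf2-/- it ran from 1.35 to 2.01 with 1 library left out. There it was called without bc204, and in no other fit that kept bc208 and bc209. Without bc204 and bc208, with bc209 as the only transgenic library, it was 2.08. Without bc209, with bc208 as the only one, it was 1.55. For Foxp2 edgeR gave -1.25 and 1.42 in these comparisons (adjusted p = 0.190 and 0.144) and DESeq2 -1.25 and 1.42 (0.185 and 0.118). Neither Foxp1 nor Foxp4 was called in any alternative. Foxp1 in Fezf2-/- against Fezf2+/+ ran from -0.03 to 0.09 with 1 library left out (negative without bc203 at -0.03, bc205 at -0.02 and bc206 at -0.01, with exact permutation p of 0.73, 0.70 and 0.90, in a range of 0.47 to 0.90), and in Fezf2-/-; Fezf2-EnR against Fezf2+/+ it was 0.01 with litter as a block. Foxp4 in Fezf2-/-; Fezf2-EnR against Fezf2-/- ran from -0.06 without bc208 to 0.12, and was -0.05 without bc204 and bc208.

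Counts over all genes moved more. In Fezf2-/- against Fezf2+/+ 139 genes were called, 66 to 218 with 1 library left out, 220 with only these groups in the fit, 239 in litter m1 alone and 315 by DESeq2. In Fezf2-/-; Fezf2-EnR against Fezf2-/- 124 were called, 21 (without bc209) to 1085 (without bc208) with 1 library left out, 67 with only these groups, 788 without bc204 and bc208 and 450 by DESeq2. In Fezf2-/-; Fezf2-EnR against Fezf2+/+ 19 were called, 8 (without bc209) to 492 (without bc208) with 1 library left out, 10 with a mean of at least 50, 11 with only these groups, 32 with litter as a block, 275 without bc204 and bc208 and 641 by DESeq2. In Fezf2-/-; Fezf2-EnR against Fezf2-/-, 0 to 2 partner genes (Ctbp2 and Hdac2, without bc208) and 0 to 1 target gene (Dab1, without bc208) were called with 1 library left out; without bc204 and bc208 these counts were 2 (Sox5 and Ctbp2) and 1 (Dab1), and DESeq2 called 1 partner gene there and 1 in Fezf2-/-; Fezf2-EnR against Fezf2+/+. The cause of these shifts was not tested. With 1 transgenic library left, it is assumed to vary like the other groups. The groups share litters but no replicate numbers, and litter as a block gave Foxp2 -1.52 in Fezf2-/- against Fezf2+/+ and 1.56 in Fezf2-/-; Fezf2-EnR against Fezf2-/-, neither called. The replicates are separate mice, and sex was not determined.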
